A study of Homo sapiens with 12 samples.

Results

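The answer of U-87 MG cells carrying a hairpin against p105 to temozolomide (TMZ) was read from 6 of the 12 arrays of the series, namely the 3 arrays of shp105 cells given TMZ and the 3 of shp105 cells given the solvent DMSO. U-87 MG is an established human glioma line that grows as adherent cells. The hairpin RNA was stably transfected and is directed at the transcript of NFKB1, which encodes p105, from which the NF-kB subunit p50 is cut. Both groups therefore carry the hairpin and differ in the drug, which was 100 uM TMZ or DMSO for 16 h. The other 6 arrays, 3 of shControl cells with a control hairpin and DMSO and 3 of shControl cells with 100 uM TMZ, entered the fit and serve as the comparison. The labels call the replicates biological but name neither clones nor separate transfections, so the p-values measure the spread between these arrays. The series asks how the p105 hairpin bears on the reaction of these glioma cells to the drug. NFKB1, the hairpin's target, had log2 levels of 7.17, 7.27 and 7.16 in shp105 cells with DMSO and 7.40, 7.23 and 7.34 in shControl cells with DMSO. The groups overlapped and differed by -0.12 (exact 2-sided permutation p = 0.2, where 0.1 is the smallest that 3 against 3 arrays can give). With TMZ the target stood at 7.14, 7.22 and 7.14 against 7.5, 7.45 and 7.30, without overlap, a difference of -0.25 (exact p = 0.1). The arrays do not measure the proteins p105 and p50.

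TMZ breaks down in water to a methylating agent that modifies guanine and adenine bases in DNA. Methyl groups on the O6 position of guanine are removed by MGMT, and those left behind mispair and engage mismatch repair when the strand is copied, while N-methylated bases are cut out by base excision repair. DNA damage signalled through ATM, ATR and their checkpoint kinases stabilises p53, a transcription factor that switches on genes for cell-cycle arrest, repair, apoptosis and its own feedback inhibition. NF-kB is another transcription factor that DNA damage can engage, with p50 as a subunit that binds DNA but lacks a domain for activating transcription.

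Expression levels are log2 values, so a difference of 1 is a change of 2-fold. Of the 19775 genes tested, 128 rose with TMZ in shp105 cells, which is 0.647%, and 43 fell, which is 0.217% (limma, Benjamini-Hochberg adjusted p under 0.05). The response was small in size. The median size of the called increases was 0.38 and that of the called decreases 0.36, with 29 increases and 4 decreases of at least 0.5. GDF15 was the 1 gene above 1. In all 128 increases and all 43 decreases the 3 TMZ arrays lay wholly on 1 side of the 3 DMSO arrays. Such separation was common: it held upward for 12.5% and downward for 7.86% of all genes tested. Over all genes the median difference was 0.01, and 10803 of 19775 were positive.

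How many genes passed depended on the arrays that set the spread. GDF15 and CDKN1A were the 2 genes called when only the 6 shp105 arrays were fitted. The median over the 19775 genes was 6.29 to 6.32 on the DMSO arrays and 6.34 to 6.36 on the TMZ arrays. Centring every array on that median moved the split from 128 and 43 to 94 higher and 131 lower. Leaving out shp105_DMSO replicate 1, 2 or 3 left 52, 49 or 76 called genes, and leaving out shp105_TMZ replicate 2 or 3 left 81 or 86. Without shControl_DMSO replicate 3 there were 107, and without shControl_TMZ replicate 1 there were 101. Of the 52 called genes that are named here by rule, 22 kept their call whichever of the 12 arrays was left out. All 52 kept their direction, which genes with non-overlapping groups cannot lose when 1 array is left out.

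**Figure D1:**
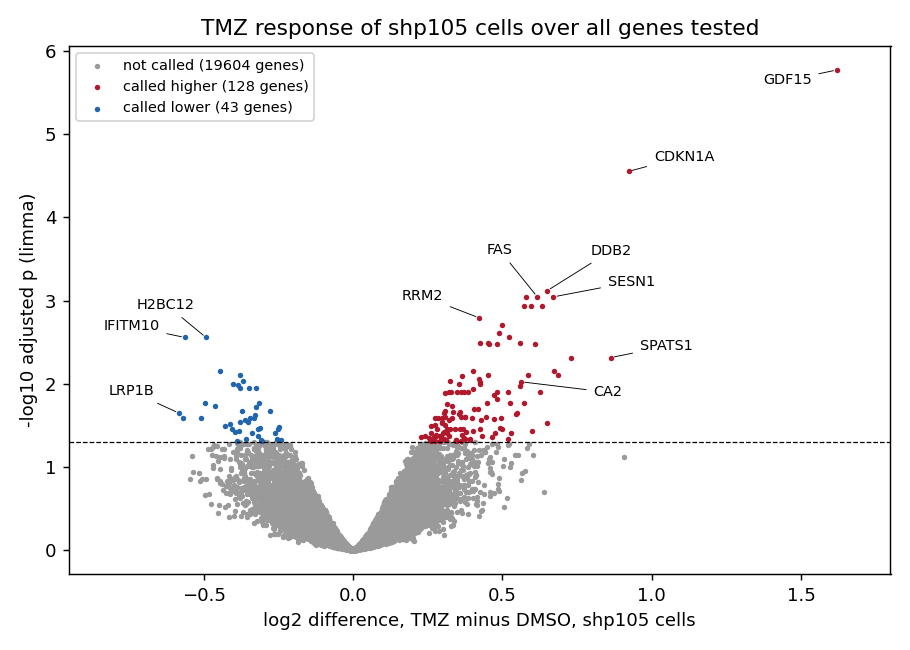
Each point is 1 of 19775 genes, with the log2 difference TMZ minus DMSO in shp105 cells on the x axis and -log10 of limma's adjusted p on the y axis. The dashed line marks an adjusted p of 0.05, and GDF15 and CDKN1A stand apart from the other increases.

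Over all probe sets the median log2 levels of the 6 arrays lay between 5.06 and 5.09, and the 3 arrays of a group correlated across genes at 0.997 to 0.998. Some control measures differed with the treatment. The hybridization spike-ins averaged 11.13 (SD 0.10, n = 3) with DMSO and 11.32 (SD 0.13, n = 3) with TMZ (exact p = 0.2). Probe sets for bacterial sequences absent from the cells averaged 2.96 to 2.99 on the DMSO arrays and 3.03 to 3.05 on the TMZ arrays, without overlap (exact p = 0.1), and the part of this shift in the calls was not tested. Individually these probe sets lay between 2.51 and 4.06, which marks the background. When the spike-in level entered the fit as a covariate, 13 genes passed. That level also differed between the lines, at 10.57 to 10.67 with DMSO and 10.84 to 11.01 with TMZ on the shControl arrays. The covariate thus followed the line as well as the treatment. GAPDH probe sets at the 3' and 5' ends of the transcript, whose gap grows as RNA degrades, differed in that gap by 0.04 between the groups (exact p = 0.4). The GAPDH gap was 0.36 with DMSO and 0.40 with TMZ in shp105 cells, and 0.22 to 0.32 on the shControl arrays. In shp105 cells that of ACTB was larger, at 3.07 with DMSO and 3.06 with TMZ, and its bearing on RNA quality was not tested. Of 16 glioma line markers 2 lay below the highest of these absent sequences, and the list averaged between 9.80 and 9.85 on each array. VIM and CD44, a filament protein and a hyaluronan receptor of mesenchymal cells, stood at 14.75 and 12.74 with DMSO. Lower were the neural stem marker NES at 5.53 and the astrocyte filament GFAP at 5.13. The astrocytic markers S100B and AQP4, at 3.58 and 3.01, were the 2 at background. Markers of leukocytes, epithelium, neurons and endothelium held no called gene among 20, 18, 13 and 11 measured. Their array means ranged from 4.54 to 4.65, 4.69 to 4.74, 6.17 to 6.27 and 4.51 to 4.63 with DMSO, and from 4.61 to 4.67, 4.69 to 4.77, 6.21 to 6.30 and 4.41 to 4.63 with TMZ. The neuronal mean hides a wide range. With DMSO TUBB3 stood at 12.66 and GAD1, MAP2, SNAP25 and SYT1 at 8.02 to 8.59, whereas 4 of the 13 lay below the highest absent sequence.

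The list with the most called members was that of p53 targets. Of 54 measured members 18 rose and none fell, against 0.647% rising among all genes, and the median difference of the list was 0.19 against 0.01 over all genes. With median centring or quantile normalization 18 rose and 1 fell. Sequences around the start sites of the called targets are shown first, since p53 binds a known form of site. The p53 element was searched as 2 adjacent half-sites of 10 bases with no spacer, each with the C and G of its core in place, allowing 3 mismatches over the 20 bases. The half-site reads the same on either strand, so both strands were covered. RefSeq start-site windows (GRCh38.p14, 250 bases before to 50 after a start) existed for 15 of the 18 genes. In 7 of these 15 at least 1 window held a match, and so did 373 of 27305 genes with a window (1.37%). The genes are on the list as known p53 targets, so these matches are a description and were not tested. CDKN1A came no closer than 5 mismatches within its window. The matched 20 bases are in capitals, with flanking bases in lower case:
DDB2: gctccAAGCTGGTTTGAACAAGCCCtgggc
FAS: ctcctGGACAAGCCCTGACAAGCCAagcca
MDM2: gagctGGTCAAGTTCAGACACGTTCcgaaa
AEN: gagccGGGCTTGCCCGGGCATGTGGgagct
SESN1: cgtctGGACAAGTCTCCACAAGTCAgaaat
GDF15: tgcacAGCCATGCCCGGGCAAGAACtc

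The DDB2 stretch is chr11:47214964-47214993 on the plus strand, with 1 mismatch and its first matched base 5 bases before the start. The FAS stretch is chr10:88991304-88991333 on the plus strand, with 2 mismatches and 122 bases before the start. The MDM2 stretch is chr12:68808918-68808947 on the plus strand, with 2 mismatches, 94 and 101 bases before the 2 starts whose windows hold it. Those of AEN (chr15:88621301-88621330, plus strand, 2 mismatches) and SESN1 (chr6:109009013-109009042, minus strand, 3 mismatches) began 34 and 49 bases before their starts. That of GDF15 (chr19:18386181-18386207, plus strand, 3 mismatches) lies within the transcript, 29 bases into it. The remaining match, in the window of ACTA2, is the same 20 bases as in FAS, at chr10:88991309-88991328, read on the minus strand. FAS and ACTA2 are neighbours in divergent orientation, and both rose.

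In the group listed as feedback on p53, which also holds PHLDA3 and TRIAP1, 5 of 8 measured genes rose. MDM2, the ligase that marks p53 for degradation, stood at log2 levels of 9.65, 9.91 and 9.81 with DMSO and at 10.26, 10.18 and 10.34 with TMZ. The lowest TMZ array thus lay above the highest DMSO array, and the difference was 0.47 (SE 0.07, limma adjusted p = 0.0138). Of the 10 probe sets of MDM2, 9 were higher with TMZ. PPM1D, a phosphatase that dampens p53 and ATM, went from 7.66, 7.55 and 7.84 to 8.29, 8.18 and 8.26, without overlap, a difference of 0.56 (SE 0.08, adjusted p = 0.0107). TP53INP1, a stress-induced cofactor of p53, rose by 0.63 (SE 0.10, adjusted p = 0.0125), with the TMZ arrays at 8.98, 8.66 and 9.08 spread more widely than the DMSO arrays at 8.25, 8.26 and 8.34. PHLDA3, an inhibitor of Akt, rose by 0.48 (SE 0.06), and TRIAP1, a small mitochondrial protein that restrains apoptosis, by 0.31 (SE 0.05).

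Cell-cycle arrest genes were led by CDKN1A, which encodes p21, an inhibitor of cyclin-dependent kinases. Its levels were 9.97, 9.89 and 10.04 with DMSO and 10.91, 10.84 and 10.92 with TMZ. The TMZ arrays all lay well above the DMSO arrays. The difference of 0.92 (SE 0.06, adjusted p = 2.80e-05) is 1.90-fold. PLK3, a stress-responsive polo-like kinase, was at 6.47, 6.40 and 6.41 with DMSO and at 6.89, 6.79 and 6.95 with TMZ, and rose by 0.45 (SE 0.07, adjusted p = 0.0171). Its dimmer probe sets differed by 0.00 and -0.02. In all, 2 of 6 measured arrest genes were called. GADD45A, another arrest gene, differed by 0.15 (adjusted p = 0.195), and the kinase PLK2 by 0.13 (adjusted p = 0.195). CCND1, the cyclin D1 of G1 phase, stood at -0.35 (adjusted p = 0.0533).

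Of 15 measured apoptosis genes on the p53 list 3 rose. FAS, the death receptor, stood at 8.75, 8.65 and 8.82 with DMSO and at 9.41, 9.38 and 9.29 with TMZ. The groups lay clear of each other and differed by 0.62 (SE 0.06, adjusted p = 0.000901), with all 5 probe sets of the gene moving upward. TP53I3, a quinone oxidoreductase, rose by 0.40 (SE 0.07, adjusted p = 0.0254), and AEN, a nuclease, by 0.33 (SE 0.06, adjusted p = 0.0219). No measured pro-apoptotic BCL2 relative was called in shp105 cells, and the listed gene BBC3 was not measured. BAX stood at 6.48, 6.78 and 6.76 with DMSO and at 6.74, 6.85 and 6.94 with TMZ, with overlapping groups (0.17, adjusted p = 0.307). In shControl cells BAX rose by 0.43 (limma adjusted p = 0.0494), and the difference of responses was not called (adjusted p = 0.773). PMAIP1, also called NOXA, differed by 0.03 in shp105 cells (adjusted p = 0.914). Of the 15 measured BCL2 family members 0 were called, the smallest p belonging to the survival gene BCL2L1 (0.21, adjusted p = 0.184). In the death receptor pathway FAS was the 1 called gene of 17, and the TRAIL receptor TNFRSF10B stood at 0.13 (adjusted p = 0.309).

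Repair genes on the p53 list rose in 2 of 5 cases. DDB2, which recognises ultraviolet damage together with DDB1, was at 9.72, 9.69 and 9.76 with DMSO and at 10.40, 10.31 and 10.42 with TMZ. The 3 arrays of each group were tightly grouped, and the difference was 0.65 (SE 0.06, adjusted p = 0.000760). XPC, the damage sensor of global nucleotide excision repair, went from 9.0, 9.02 and 8.95 to 9.38, 9.47 and 9.47, a difference of 0.45 (SE 0.05, adjusted p = 0.00326). These were also the 2 called genes among 16 of nucleotide excision repair, whose median difference was 0.05. SESN1, a sestrin that restrains mTORC1 and limits peroxides, was the 1 called gene among 6 metabolic and redox targets. It went from 7.88, 7.88 and 7.99 to 8.70, 8.46 and 8.61, without overlap, a difference of 0.67 (SE 0.06, adjusted p = 0.000901).

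Secreted and other p53 targets rose in 5 of 14 cases. GDF15, a secreted stress cytokine of the TGF-beta superfamily, had the largest increase of all genes. Its levels were 8.95, 9.08 and 9.0 with DMSO and 10.52, 10.72 and 10.64 with TMZ, so that the gap between the groups was far wider than the spread within either. The difference was 1.62 (SE 0.07, adjusted p = 1.69e-06), which is 3.08-fold, and all 3 probe sets of GDF15 moved upward. PLXNB2, a semaphorin receptor, rose by 0.61 (SE 0.07), and ACTA2, smooth muscle actin, by 0.52 (SE 0.06). The antiviral ubiquitin ligase TRIM22 rose by 0.43 (SE 0.06) and CYFIP2, a subunit of the WAVE actin complex, by 0.40 (SE 0.06). Probe sets of PLXNB2 and ACTA2 near background did not follow, at -0.16 for the former and at -0.07 and -0.02 for the latter.

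**Figure D2:**
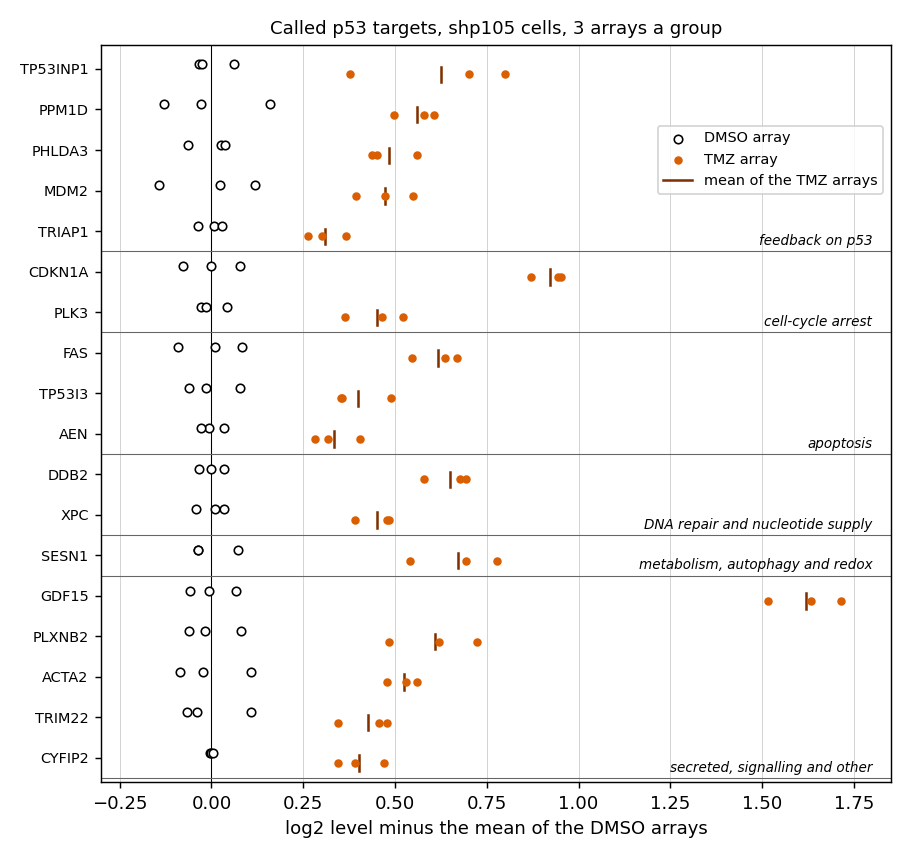
The 18 called p53 targets are grouped by role. The x axis gives the log2 level of each array minus the mean of the 3 DMSO arrays, open circles are DMSO arrays, filled circles TMZ arrays and bars the TMZ means. For all 18 genes, as for every called increase, the TMZ arrays lie to the right of the DMSO arrays, with GDF15 and CDKN1A farthest out.

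The count of 18 fell to 9 without shp105_DMSO replicate 1, to 11 without shp105_DMSO replicate 2, to 7 with the spike-in covariate and to 2 with only the compared groups. GDF15, CDKN1A, FAS, DDB2, XPC, SESN1, PHLDA3, PLXNB2 and ACTA2 kept their call with any array left out, whereas TRIM22 lost it without shp105_DMSO replicate 1 (adjusted p = 0.0501). PPM1D, TP53INP1, TRIAP1 and CYFIP2 lost it without shp105_DMSO replicate 1 or 2, and MDM2 without shp105_DMSO replicate 1 or shp105_TMZ replicate 3 (at most 0.0559). AEN, PLK3 and TP53I3 each lost it without any of 4 shp105 arrays.

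Among genes for DNA replication and mitosis 2 of 47 and 3 of 49 rose, against 0.647% of all genes. Positive differences were found for 35 of the replication and 42 of the mitosis genes, against 10803 of all 19775, and the medians were 0.08 and 0.13 against 0.01. In shControl cells the medians were 0.04 and 0.15 against -0.003, with 1 gene of each list rising. RRM2, the small subunit of ribonucleotide reductase that makes deoxynucleotides, was at 12.18, 12.16 and 12.16 with DMSO and at 12.58, 12.62 and 12.58 with TMZ. Arrays within a group agreed closely, and the difference was 0.42 (SE 0.04, adjusted p = 0.00161). The other RRM2 probe set, nearly as bright with a mean of 12.05 over all arrays against 12.50, rose by 0.23. It was not called (limma adjusted p = 0.228 over all probe sets). PRIM1, the catalytic subunit of the primase that starts new strands, went from 9.28, 9.30 and 9.33 to 9.61, 9.62 and 9.60, also without overlap (0.31, SE 0.05, adjusted p = 0.0209). Among mitosis genes, the phosphatase CDC25C that activates CDK1 rose by 0.37 (SE 0.07), the kinase cofactor CKS1B by 0.31 (SE 0.06) and the kinetochore motor CENPE by 0.26 (SE 0.05). CDC25C was at 7.35, 7.18 and 7.32 with DMSO and at 7.57, 7.72 and 7.66 with TMZ. Of the best-known proliferation genes, CDK1 (0.21, adjusted p = 0.0802), MKI67 (0.25, adjusted p = 0.116), PCNA (0.12, adjusted p = 0.345), MCM2 (-0.02, adjusted p = 0.918) and CCNB1 (-0.04, adjusted p = 0.719) did not pass. RRM2 kept its call with any array left out. PRIM1 lost it without any of 5 shp105 arrays, and CDC25C, CKS1B and CENPE without most arrays, shControl arrays included.

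Repair by other routes showed scattered changes. BLM, a helicase of homologous recombination, stood at 7.98, 7.92 and 7.95 with DMSO and at 8.29, 8.36 and 8.30 with TMZ. All TMZ arrays were higher, by 0.37 on average (SE 0.05, adjusted p = 0.00810). RAD54B, a recombination translocase, rose by 0.32 (SE 0.06), and these were the 2 called among 22 recombination and Fanconi genes, whose median was 0.14. Checkpoint signalling held 1 called gene of 23. This was CHEK2, a kinase that relays ATM signals to p53, at 7.80, 7.87 and 7.83 with DMSO and 8.13, 8.22 and 8.21 with TMZ (0.36, SE 0.05, adjusted p = 0.00997). ATM and ATR, the sensor kinases, differed by -0.04 and 0.01, and CHEK1 by -0.10, none of them called.

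Among 23 genes for alkylation, mismatch and base excision repair 2 rose and 1 fell. NEIL3, a glycosylase that removes oxidised bases, went from 8.09, 7.93 and 8.15 to 8.41, 8.39 and 8.46 (0.36, SE 0.06, adjusted p = 0.0247). EXO1, the exonuclease of mismatch repair, went from 8.14, 8.20 and 8.24 to 8.44, 8.64 and 8.54 (0.34, SE 0.07, adjusted p = 0.0485). UNG, the glycosylase that removes uracil, moved the other way, from 6.83, 6.80 and 6.94 to 6.56, 6.47 and 6.49 (-0.35, SE 0.06, adjusted p = 0.0254). In each of these 3 genes the groups did not overlap. MGMT, the enzyme that reverses O6-methylguanine, was at 3.40, 3.46 and 3.46 with DMSO and at 3.55, 3.42 and 3.29 with TMZ, within the range of absent sequences, with a difference of -0.02 (adjusted p = 0.948) between levels at background. The glycosylase MPG, which excises N-methylated purines, differed by 0.06 (adjusted p = 0.645), PARP1 by -0.06 (adjusted p = 0.672) and the mismatch gene MSH6 by -0.12 (adjusted p = 0.260). BLM kept its call with any array left out. CHEK2 lost its call without shp105_DMSO replicate 1 (adjusted p = 0.0501), while NEIL3 lost it without any of 4 arrays, UNG of 6, EXO1 of 10 and RAD54B of 11.

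Of 37 measured genes of the integrated stress response 5 rose and 32 were not called. In this pathway, kinases that sense amino acid shortage or misfolded protein slow translation, which lets the factor ATF4 be made and switch on genes for amino acid supply. The count of 5 stands against 0.647% rising among all genes, 29 of 37 were positive, and the list's median was 0.13. NUPR1, a small stress-induced chromatin protein, was at 9.84, 9.89 and 9.89 with DMSO and at 10.23, 10.53 and 10.31 with TMZ. The TMZ arrays were all higher but more spread, and the difference was 0.48 (SE 0.08, adjusted p = 0.0154). ATF3, a transcription factor induced by ATF4 and by p53, went from 8.26, 8.24 and 8.32 to 8.51, 8.76 and 8.68 (0.37, SE 0.06, adjusted p = 0.0247). ASNS, asparagine synthetase, went from 11.10, 11.03 and 11.16 to 11.46, 11.52 and 11.39 (0.36, SE 0.06, adjusted p = 0.0218). PHGDH, the first enzyme of serine synthesis, rose by 0.26 (SE 0.05, adjusted p = 0.0324), and CHAC1, which degrades glutathione, by 0.39 (SE 0.08, adjusted p = 0.0474).

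The 8 bases TTGCATCA, a form of composite element for ATF4 with C/EBP partners, were searched on both strands of the start-site windows. Of the 5 called stress genes 4 had a window, and CHAC1 alone held them, as did 295 of 27305 genes (1.08%). The stretch is chr15:40953251-40953280 on the plus strand of GRCh38.p14, and the capitals mark the element, which begins 209 bases before the start:
CHAC1: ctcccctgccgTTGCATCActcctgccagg

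ATF4 itself stood at 12.01, 12.01 and 12 with DMSO and at 12.13, 12.28 and 12.11 with TMZ, a difference of 0.17 that did not pass (adjusted p = 0.153). DDIT3, the factor also called CHOP, differed by 0.27 (SE 0.06, adjusted p = 0.0596) and DDIT4, an inhibitor of mTORC1, by 0.28 (SE 0.06, adjusted p = 0.0524). STC2 and TRIB3, further ATF4 targets, stood at 0.02 and 0.07. The 23 chaperones and sensors of the endoplasmic reticulum held 0 called genes. HSPA5, the chaperone BiP, pointed down at -0.17 (adjusted p = 0.0978). The count of 5 was 0 with only the compared groups, with the spike-in covariate, and without shp105_DMSO replicate 1 or 2, and 1 without shp105_DMSO replicate 3 or shp105_TMZ replicate 2. It was 2 without shp105_TMZ replicate 3, and 3 without shp105_TMZ replicate 1, shControl_DMSO replicate 1 or 3, or shControl_TMZ replicate 1. Dimmer probe sets did not follow for ASNS (-0.09, at background) and differed for ATF3 (0.16 and -0.13).

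Genes of the NF-kB pathway itself gave no called component. NFKB1, the gene targeted by the hairpin, had overlapping DMSO and TMZ groups in shp105 cells, with a difference of -0.04 (SE 0.07, adjusted p = 0.840). RELA, the main activating subunit, was at 9.10, 9.23 and 9.18 with DMSO and 9.12, 9.23 and 9.12 with TMZ (-0.01, adjusted p = 0.932). Of 24 measured NF-kB components 0 were called, with a median of 0.02. RELB, the subunit of the non-canonical branch, stood at 0.36 (SE 0.10, adjusted p = 0.109) and the inhibitor NFKBIA at 0.02 (adjusted p = 0.955). Of 35 NF-kB targets 1 fell and none rose, with a median of 0.03. That gene was PTX3, a secreted pattern-recognition protein, at 8.88, 9.07 and 9.03 with DMSO and 8.66, 8.45 and 8.38 with TMZ (-0.50, SE 0.08, adjusted p = 0.0171). Its call was lost without shp105_DMSO replicate 2 or 3 or shp105_TMZ replicate 2 or 3. The cytokines IL6 (-0.01), CXCL8 (0.11) and IL1B (-0.24, adjusted p = 0.144) did not pass.

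CA2, carbonic anhydrase II, an enzyme that hydrates carbon dioxide, rose in shp105 cells. Its levels were 5.49, 5.27 and 5.51 with DMSO and 6.08, 5.94 and 5.95 with TMZ. The groups were apart, and the difference of 0.56 (SE 0.08, adjusted p = 0.00946) is 1.48-fold. The call held with any array left out.

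Beyond p53 targets, the 12 largest increases held SPATS1, ASTN2, CSMD3, S1PR3, GAS6-AS1 and LINC00513. SPATS1 went from 6.10, 6.10 and 6.35 to 6.92, 7.27 and 6.95 (0.86, SE 0.11, adjusted p = 0.00483). ASTN2, an astrotactin that acts in the trafficking of neuronal adhesion proteins, went from 5.95, 6.12 and 6.06 to 6.64, 6.78 and 6.91 (0.73, SE 0.09, adjusted p = 0.00483). In both genes every TMZ array lay above every DMSO array. S1PR3, a receptor for sphingosine-1-phosphate, went from 6.62, 6.27 and 6.61 to 7.15, 7.17 and 7.20 (0.67, SE 0.09, adjusted p = 0.00692). The low DMSO array of S1PR3 widened its spread, and its dimmer probe set stood at -0.10. CSMD3, a large membrane protein with CUB and sushi domains, rose by 0.69 (SE 0.09), the noncoding RNA LINC00513 by 0.63 (SE 0.06), and the RNA antisense to GAS6 by 0.65 (SE 0.12), the last lost without any of 6 arrays.

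The 12 largest decreases included 2 members of the lists, PTX3 and H2BC12. LRP1B, a giant receptor of the LDL receptor family, was at 3.74, 3.61 and 3.79 with DMSO and at 3.23, 2.92 and 3.25 with TMZ (-0.58, SE 0.10, adjusted p = 0.0225), all within the range of absent sequences. IFITM10, a member of the interferon-induced transmembrane family, went from 8.15, 8.31 and 8.18 to 7.60, 7.63 and 7.71 (-0.56, SE 0.06, adjusted p = 0.00277). The IFITM10 groups were well above background and clearly apart. LONRF2, a RING-finger protein, fell by 0.57 (SE 0.10), RP2, a regulator of small GTPases in cilia, by 0.51 (SE 0.09), and CCT6B, a chaperonin subunit, by 0.46 (SE 0.08). MIR100HG, a host transcript of microRNAs, went from 11.23, 11.39 and 11.26 to 10.81, 10.83 and 10.92 (-0.44, SE 0.06, adjusted p = 0.00696). ARRDC3, an arrestin-like adaptor, fell by 0.43 (SE 0.08), the nuclear receptor NR2F1 by 0.41 (SE 0.07) and DSEL, an enzyme of dermatan sulfate, by 0.40 (SE 0.08). NRP1, a co-receptor for semaphorins and VEGF, fell by 0.40 (SE 0.06, adjusted p = 0.00997), although its next brightest probe set stood at 0.13. IFITM10, H2BC12, MIR100HG and NRP1 kept their call with any array left out, and the other 8 of these 12 genes each lost it without any of at least 4 arrays.

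H2BC12, a replication-dependent H2B histone, fell from 9.70, 9.64 and 9.70 to 9.17, 9.27 and 9.13 (-0.49, SE 0.06, adjusted p = 0.00277). The groups did not overlap, and the call held with any array left out. It was the 1 called gene of 15 listed replication-dependent histone genes, of which 4 were positive, with a median of -0.14. Over all 49 measured genes with a histone symbol 22 were positive, and the median was -0.01 in shp105 and -0.05 in shControl cells. H2B genes are near-identical copies, so a probe set may read more than its named gene.

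In the list of phosphatases and Sprouty genes drawn up for ERK feedback, 1 of 16 rose and 2 fell, and the 1 that rose acts on p38 and JNK. SPRY2, a Sprouty protein that restrains receptor tyrosine kinase signalling, was at 11.86, 11.90 and 11.86 with DMSO and at 11.56, 11.48 and 11.48 with TMZ (-0.37, SE 0.05, adjusted p = 0.00924). DUSP6, the cytoplasmic ERK phosphatase, fell by 0.36 (SE 0.07, adjusted p = 0.0461), and DUSP10, a phosphatase of p38 and JNK, rose by 0.31 (SE 0.05, adjusted p = 0.0247). SPRY2 kept its call with any array left out, DUSP10 lost it without any of 5 arrays and DUSP6 of 10.

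Lone called genes stood in 4 more lists. IRF7, a regulator of interferon genes, rose by 0.37 (SE 0.07) among 32 interferon genes. The pluripotency factor KLF4 fell by 0.31 (SE 0.06) among 23 immediate early factors, EGLN1, an oxygen-sensing hydroxylase, by 0.26 (SE 0.05) among 29 hypoxia genes, and HMOX1, which degrades heme, by 0.30 (SE 0.06) among 18 NRF2 targets. Each of these 4 calls was lost without any of at least 11 arrays. Cholesterol synthesis (19 genes), TGF-beta targets (16), extracellular matrix (35), autophagy and lysosome (24), ribosome biogenesis (20), ribosomal proteins (14), oxidative phosphorylation (18), heat shock (13), circadian clock (15) and cilium genes (13) held 0 called genes. So did mesenchymal (24) and proneural (19) glioma markers. The medians of these 12 lists lay between -0.05 and 0.05.

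**Figure D3:**
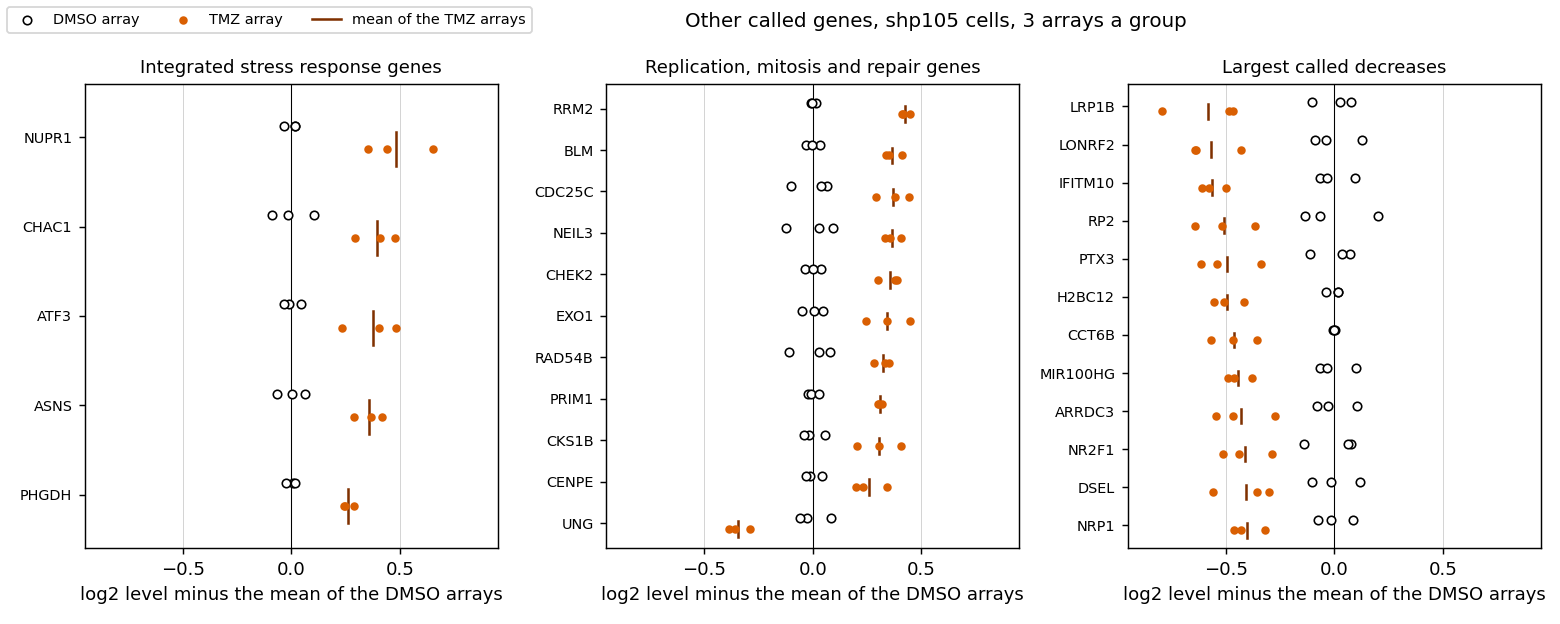
The panels show, for shp105 cells, the 5 called stress response genes, 11 called genes of replication, mitosis and repair, and the 12 largest called decreases. The x axis is the log2 level of each array minus the mean of the 3 DMSO arrays. As in all called genes, the open DMSO circles and filled TMZ circles do not overlap, and the decreases were chosen for this.

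**Figure D4:**
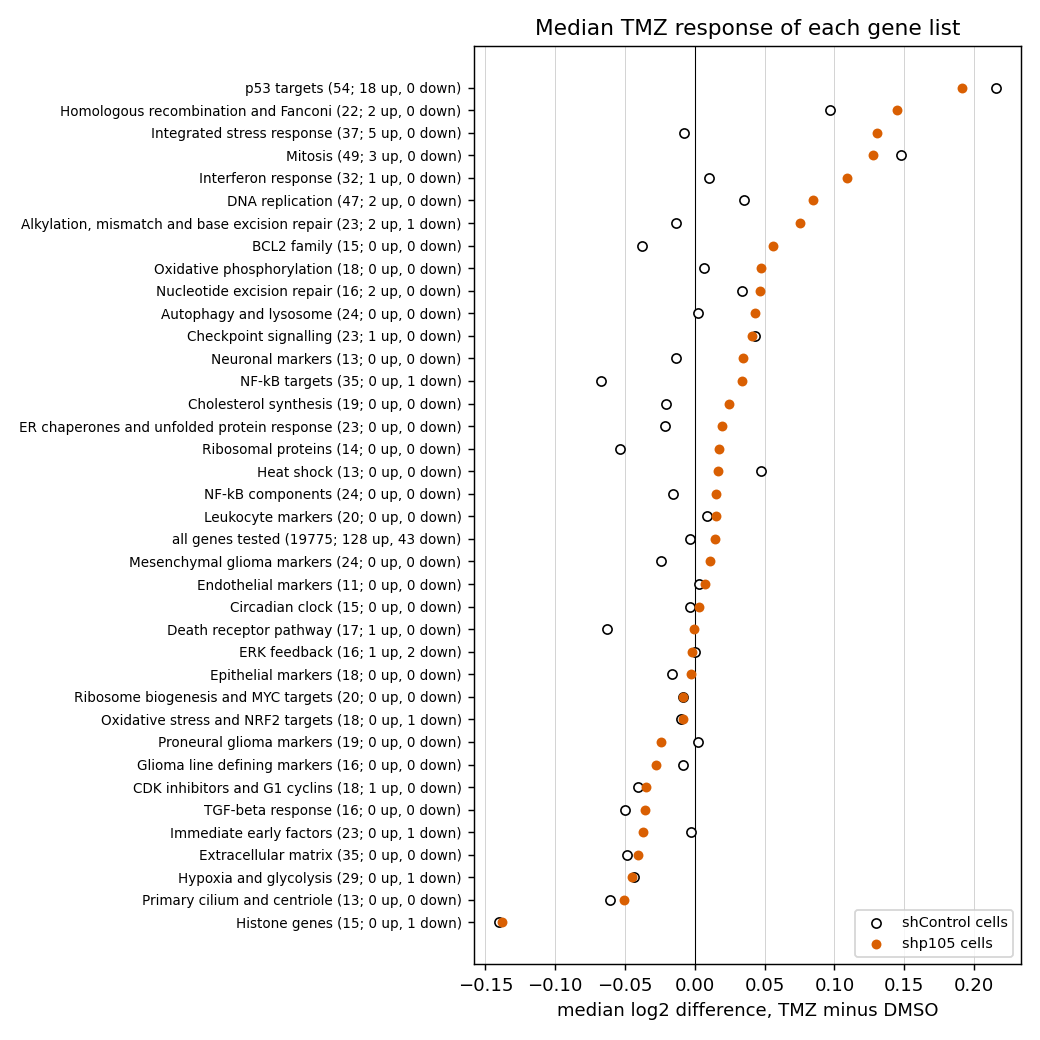
Each row is a gene list, with its measured members and the number called up and down in shp105 cells in brackets. The x axis is the list's median log2 difference, TMZ minus DMSO, in shp105 cells (filled) and shControl cells (open). The p53 targets lie farthest to the right in both lines, at 0.19 and 0.22, and the 15 listed histone genes farthest to the left, at -0.14 in both, against -0.01 and -0.05 over all 49 histone genes.

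The same contrast in shControl cells called 50 genes higher, 0.253% of all tested, and 23 lower, 0.116%. Higher in both lines were 35 genes, which is 27.3% of the shp105 increases and 70% of the shControl increases. Lower in both were 6, which is 14% and 26.1%, and none was called in opposite directions. Of the 171 genes called in shp105 cells 154 had the same sign in shControl cells. The shControl count fell from 73 to 48 without shp105_DMSO replicate 3, to 29, 16 or 20 without shControl_DMSO replicate 1, 2 or 3, and to 24, 16 or 19 without shControl_TMZ replicate 1, 2 or 3. It was 19 with only the shControl arrays and 0 with the spike-in covariate.

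Core p53 targets rose in both lines, and the differences between their responses were not called. CDKN1A rose by 0.92 (SE 0.06) in shp105 and 0.88 (SE 0.06) in shControl cells, and the difference of responses was 0.04 (SE 0.08, adjusted p = 0.962). For DDB2 the values were 0.65 and 0.68, for FAS 0.62 and 0.58, for SESN1 0.67 and 0.59, and for MDM2 0.47 and 0.61. GDF15 rose by 1.62 (SE 0.07) and 1.14 (SE 0.07), a difference of 0.49 (SE 0.10) that did not pass (adjusted p = 0.381). On the p53 list 18 genes were called in shp105 and 17 in shControl cells. PLK2, a polo-like kinase and p53 target, was positive in both lines but smaller in shp105 cells, with 0.13 against 0.54 (SE 0.05) in shControl cells (difference -0.41, SE 0.07, adjusted p = 0.138).

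The direct test of the difference between both TMZ responses called 0% of the genes, that is 0 of 19775 by limma. An unadjusted p under 0.05 was reached by 1266 genes, where 5% of the 19775 are expected without any difference. The smallest adjusted p was 0.104. With genes below the median level left out 8 were called, and with a trended and robust spread 12. PNLIPRP3, LINC00520 and DDIT4 shared the smallest adjusted p of 0.104. PNLIPRP3, a lipase-related gene, had shp105 levels of 7.24, 7.25 and 7.32 with DMSO and 7.82, 7.74 and 7.74 with TMZ, a rise of 0.50 (SE 0.05), against -0.08 in shControl cells. LINC00520, a noncoding RNA, went from 9.52, 9.47 and 9.39 to 10.01, 10.07 and 10.04, a rise of 0.58 (SE 0.05) against 0.05 in shControl cells. DDIT4 stood at 0.28 in shp105 and -0.31 in shControl cells, and DDIT3 at 0.27 and -0.30 (adjusted p of the difference 0.136). GCNT3, a mucin-type glycosyltransferase, rose by 0.46 against -0.04 (adjusted p of the difference 0.138), and the cation channel TRPC4 by 0.56 against 0.02 (adjusted p of the difference 0.222), though 3 of its 4 probe sets were not higher. CA2 stood at 0.56 against 0.03, a difference of 0.54 (SE 0.11, adjusted p = 0.381).

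The 5 called stress response genes were chosen by their shp105 values, which favours a larger response in that line. They stood at 0.01 (NUPR1), 0.11 (ASNS), 0.11 (ATF3), 0.04 (PHGDH) and -0.13 (CHAC1) in shControl cells. None of the 37 members was called there, and the list's median was -0.01 against 0.13 in shp105 cells. Their differences of responses did not pass either, with 0.47 (SE 0.11, adjusted p = 0.475) for NUPR1 and 0.53 (SE 0.11, adjusted p = 0.381) for CHAC1. SPRY2, at -0.37 in shp105 and 0.01 in shControl cells, had an adjusted p of 0.360 for the difference. H2BC12 fell in both, by 0.49 in shp105 and by 0.69 in shControl cells.

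**Figure D5:**
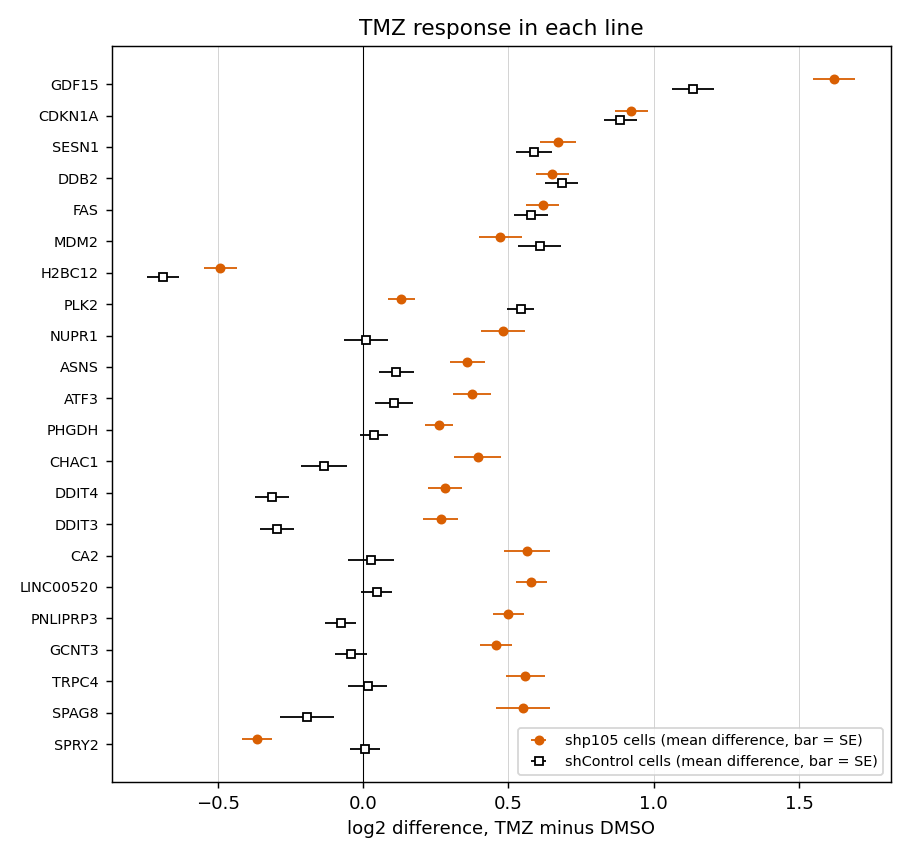
Mean log2 difference TMZ minus DMSO with its SE for 22 genes, in shp105 cells (filled circles) and shControl cells (open squares), n = 3 arrays in every group. GDF15, CDKN1A, SESN1, DDB2, FAS and MDM2 lie to the right in both lines, while the genes from NUPR1 to SPAG8 lie near or left of 0 in shControl cells. Apart from the fixed gene CA2, the latter were chosen for their call in shp105 cells or a small p of the difference. Their lower shControl values follow in part from that choice. None of the 22 differences between the lines passed.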

How the data were processed

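The deposited table holds log2 expression values, 1 column per array and 54675 probe sets. RMA and Affymetrix Power Tools are named in the submitters' processing notes, and their versions, the genome build and any filter were not stated in the sources used here. Gene symbols came from the array's probe table and RefSeq (GRCh38.p14). The 41097 probe sets with 1 symbol were reduced to 19775 genes by keeping the probe set with the highest mean over all 12 arrays. For 47 of the 92 called genes with several probe sets all of them moved the same way. No dim gene was filtered.

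One limma fit (lmFit and eBayes, version 3.58.1, R 4.3.3) of the 4 group means over 12 arrays gave all differences, standard errors and Benjamini-Hochberg adjusted p-values over all genes, and 2-sided tests were used throughout. It was tested on simulated data. The number of arrays limits the precision. Same-numbered arrays had deviations from their group means that correlated at r = 0.02, 0.08 and 0.03, so the numbers were not taken as pairs.

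Members and the 37 lists (887 genes, 806 measured) were chosen with earlier results of these data known. Named are the 12 largest called increases and decreases with non-overlapping groups, up to 4 called members of a list by smallest p, its smallest-p member where none is called, fixed genes (NFKB1, RELA, MDM2, CDKN1A, MGMT, CA2) and the 5 genes with the smallest p for the difference. The further p53 targets and all other genes were named after their values were seen. Python 3.11.15 with matplotlib 3.10.9 drew the plots.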

Additional observations from a re-analysis of the deposited data

Results flagged for a closer look

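Some probe sets that could not be given 1 gene were called in the TMZ response of shp105 cells and are used in no comparison above. Of the 11721 probe sets without a symbol 15 were called (10 higher and 5 lower), with the largest increase at 0.96 (SE 0.07) and the largest decrease at -0.87 (SE 0.14). Of the 1801 probe sets with several symbols 2 were called, 1 higher and 1 lower. Adjusted p-values of these 2 kinds are over all 54675 probe sets. Of the 41097 probe sets with 1 symbol, 96 were called when each was tested on its own, adjusted over those 41097. Groups of 3 arrays are too small for a check of single outlying arrays.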

How the results depend on the processing

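The 171 called genes of shp105 cells became 96 with each probe set tested on its own, 904 with genes below the median level left out (142 of them shared), 937 with trended and robust fitting (167 shared), 105 with array weights, 2 with only the compared groups, 2 with the replicate block, 13 with the spike-in covariate and 39 at an adjusted p under 0.01. Leaving out 1 array gave 49 to 188. The 73 of shControl cells became 45 with the mean of all probe sets, 291 (dim genes out), 358 (trended), 149 (weights), 19 (compared groups), 5 (replicate block), 0 (spike-in covariate) and 15 (adjusted p under 0.01), and 16 to 76 with 1 array left out. The difference of responses called 8 genes with dim genes left out and 12 with trended fitting, and 0 otherwise, also with 1 array left out. The p53 count of 18 became 2 (compared groups), 2 (replicate block), 7 (spike-in covariate) and 10 (adjusted p under 0.01), and 9 to 19 with 1 array left out. The stress count of 5 became 12 (dim genes out), 12 (trended), 3 (weights), and 0 with the compared groups, the replicate block, the covariate or the stricter threshold, and 0 to 4 with 1 array left out. The compared-groups and block fits leave 4 residual degrees of freedom in place of 8. For the other settings the cause was not tested. GDF15 and CDKN1A kept their calls under all 21 alternatives run for single genes, and none of the 66 called genes they were run on turned its direction. Most of these alternatives could not turn it. Where groups do not overlap, leaving out 1 array or refitting the same values without a covariate keeps the sign. Signals near 4.06 or below cannot be told from background.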

Other observations

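The genes here were chosen after their values were seen. They were called and stand outside the lists. PCK2, the mitochondrial form of the enzyme that makes phosphoenolpyruvate, went from 7.08, 7.08 and 7.02 with DMSO to 7.42, 7.45 and 7.40 with TMZ in shp105 cells (0.37, SE 0.07, limma adjusted p = 0.0347), against -0.05 in shControl cells. GOT1, an aspartate aminotransferase, rose by 0.29 (SE 0.06) and INHBE, an activin subunit, by 0.50 (SE 0.09), against 0.08 and 0.26. PCK2 lost its call without any of 8 arrays, GOT1 of 11 and INHBE of 7.

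FAM111A, a protease that clears obstacles at replication forks, went from 9.89, 9.80 and 9.79 to 10.20, 10.31 and 10.26 (0.42, SE 0.05, adjusted p = 0.00326) and kept its call with any array left out. CDCA5, which holds sister chromatids together, rose by 0.36 (SE 0.06) and DSCC1, a subunit of a clamp loader, by 0.35 (SE 0.05). CDCA5 lost its call without shp105_DMSO replicate 1, 2 or 3, and DSCC1 without shp105_DMSO replicate 1 or 2. STOM, a membrane scaffold protein, rose by 0.60 (SE 0.06), HSPA4L, an HSP110-type chaperone, by 0.57 (SE 0.06) and IDH2, the mitochondrial isocitrate dehydrogenase, by 0.40 (SE 0.05), and these 3 calls held with any array left out. They rose in shControl cells too, by 0.41, 0.55 and 0.33.

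Of 9 measured pregnancy-specific glycoprotein genes 2 rose, PSG7 by 0.60 (SE 0.11) and PSG1 by 0.45 (SE 0.06), with a family median of 0.03. These genes are near-identical copies, so their probe sets may share transcripts, and PSG7 lost its call without any of 7 arrays. SNAI2, a repressor of epithelial genes, went from 11.40, 11.40 and 11.42 to 11.09, 10.91 and 11.07 (-0.39, SE 0.06, adjusted p = 0.0103), and fell in shControl cells as well, by 0.37. HMGA2, a chromatin protein, fell by 0.35 (SE 0.05) and lost its call without shp105_DMSO replicate 2 (adjusted p = 0.0571).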
